A study of Mus musculus with 12 samples.

Results

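Voltage-gated sodium and calcium channels were described in sorted embryonic mouse motor neurons through 38 genes of the 30740 gene symbols in the deposited tables. The members were every symbol of the pore-forming sodium channel alpha subunits (Scn followed by a number and the letter a), the sodium channel beta subunits (Scn followed by a number and the letter b), the calcium channel pores Cacna1a to Cacna1i, and the calcium channel subunits Cacna2d1 to Cacna2d4, Cacnb1 to Cacnb4 and Cacng1 to Cacng8. No measured value entered this rule of names, though earlier results of these data were known when it was set. The members comprised 13 sodium channel genes (9 alpha and 4 beta) and 25 calcium channel genes, which were 3 Cav1, 3 Cav2, 3 Cav3, 4 alpha2delta, 4 Cavbeta and 8 gamma genes. The names did not take in Scn2a1, the older symbol under which the tables list the neuronal sodium channel Scn2a, or Cacna1s, the calcium channel pore of skeletal muscle.

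Voltage-gated sodium channels open when the membrane depolarizes and carry the upstroke of the action potential, and their small beta subunits set gating, placement and adhesion. Voltage-gated calcium channels turn the same depolarization into calcium entry: Cav1 pores give long-lasting current that reaches gene expression, Cav2 pores trigger transmitter release at nerve terminals, and Cav3 pores open at low voltage and support rhythmic firing. The alpha2delta and Cavbeta subunits bring the Cav1 and Cav2 pores to the membrane, while most gamma proteins serve AMPA-type glutamate receptors instead. In the embryonic spinal cord, motor neurons fire spontaneously and use calcium entry while their axons grow to the muscles.

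RNA was sequenced from ventral spinal cord of CB6F1/J mouse embryos at E12.5 (days of embryonic development) that carried the Hb9:GFP reporter, in which the promoter of the motor neuron gene Mnx1 (Hb9) drives a fluorescent protein. The groups were GFP-positive cells of Arhgap35 knockout embryos (5 libraries), GFP-positive cells of control littermates (5 libraries), GFP-negative cells of knockout embryos (1 library) and GFP-negative cells of control littermates (1 library). Arhgap35 encodes p190, a GTPase-activating protein. The controls were wild-type or heterozygous for the p190 mutation, tissue of several embryos was pooled, and all 4 groups share the strain, the age, the reporter, papain dissociation and cell sorting. The labels state neither which part of Arhgap35 is deleted nor whether replicates came from separate litters. Each p-value therefore sets a difference against the spread between these libraries of pooled tissue, and does not reach to single embryos or litters. The labels call the GFP-negative samples motor neurons as well.

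Total estimated counts were 23.7 to 33.8 M per library, and 3 counts, taken as the floor, equal 0.0890 to 0.127 CPM (counts-per-million) in these libraries. Arhgap35 stood at 98.6, 88.2, 103, 106 and 89.2 CPM in knockout and 161, 202, 178, 187 and 135 CPM in control GFP-positive libraries (replicates 1 to 5 in order, here and below), and at 96.3 and 155 CPM in the knockout and control GFP-negative libraries. Every knockout library was below every control library of its sort. The 8 motor neuron markers summed to 1551 to 1916 CPM in knockout and 1480 to 1942 CPM in control GFP-positive libraries, and to 48.0 and 50.7 CPM in the knockout and control GFP-negative libraries, where Mnx1 was at 0.438 and 0.508 CPM. The defining markers therefore go against the motor neuron label of the GFP-negative samples, which are called GFP-negative cells here. In those libraries 9 neural progenitor markers summed to 1267 and 1114 CPM and 11 interneuron markers to 699.7 and 782 CPM. Among GFP-positive libraries the interneuron sum was 115, 52.2, 31.4, 93.5 and 28.4 CPM in knockout and 165, 69.1, 28.9, 149 and 25.4 CPM in control replicates, so the libraries numbered 1 and 4 were the highest of both genotypes.

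The channel genes spanned more than 4 orders of magnitude in GFP-positive cells. On the deposited transcripts-per-million scale (TPM), which is per transcript length and allows levels to be compared between genes, 25 of the 38 members averaged at least 10 TPM over the 10 GFP-positive libraries, 4 lay between 1 and 10 TPM, and 9 were under 1 TPM. The 7 members above 100 TPM were Cacnb3, Scn3b, Cacna1g, Cacng4, Cacnb1, Cacna1h and Scn3a, from 316 ± 12.54 TPM for Cacnb3 to 109 ± 5.82 TPM for Scn3a (SD, n = 10). The 9 members under 1 TPM were Cacna2d4, Cacng1, Cacna1f, Scn7a, Scn10a, Scn11a, Scn4b, Cacng6 and Scn4a. Of these, Scn4a and Cacng1 belong to the skeletal muscle channel complexes, Cacna1f to photoreceptors, and Scn10a and Scn11a to pain-sensing neurons. Estimated counts were above 0 in all 12 libraries for 34 of the 38.

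**Figure D1:**
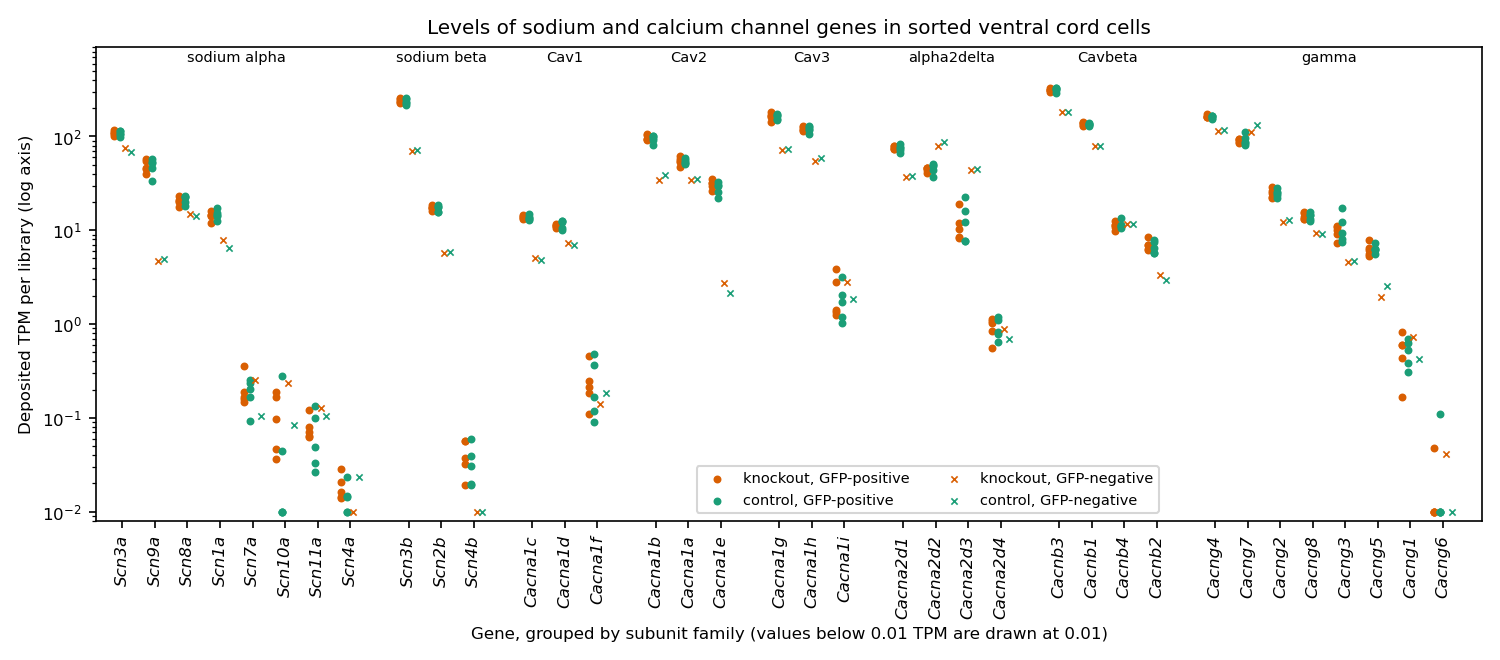
Deposited TPM of 36 channel genes (vertical axis, logarithmic) by subunit family (horizontal axis); each circle is a GFP-positive library and each cross a GFP-negative library, knockout in orange and control in green. Knockout and control circles overlap for every gene, and the crosses stand apart from the circles for Scn9a and Cacna1e, which are far lower in GFP-negative cells.

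Each family was led by 1 or 2 genes, with the same order of the leading gene in both genotypes. Scn3a, which encodes the embryonic sodium channel Nav1.3, held 56.2 ± 2.53% of the summed sodium alpha TPM in knockout and 55.8 ± 2.09% in control GFP-positive libraries (SD, n = 5 each, here and in the shares that follow). Scn9a, the gene of Nav1.7, best known from sensory and sympathetic neurons, held 24.7 ± 2.03% in knockout and 24.8 ± 2.90% in control. Scn8a (Nav1.6, the channel of mature nodes of Ranvier) held 10.5 ± 0.820% and Scn1a (Nav1.1) 7.30 ± 0.531% in knockout, against 10.9 ± 1.07% and 7.60 ± 0.795% in control. Scn2a1, outside the family as defined by name, had 47.0 TPM in knockout and 46.6 TPM in control, a level close to that of Scn9a. Among beta subunits Scn3b, which binds the pore without a covalent bond, took 89.1 ± 0.544% in knockout and 89.1 ± 0.543% in control.

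The calcium channel pores divided more evenly. Cacna1c and Cacna1d, the Cav1 pores of heart and brain, held 54.8 ± 0.907% and 44.2 ± 0.884% of the Cav1 TPM in knockout, against 53.6 ± 1.57% and 45.4 ± 2.004% in control. Of the Cav2 pores, N-type Cacna1b held 53.3 ± 0.733%, P/Q-type Cacna1a 30.0 ± 1.22% and R-type Cacna1e 16.8 ± 1.36% in knockout, against 53.4 ± 2.21%, 30.7 ± 0.448% and 15.9 ± 2.19% in control. On the count scale, which is not per length, Cacna1e held 32.1% and Cacna1a 18.3% in knockout, against 30.8% and 19.0% in control, so that their order was turned. The summed TPM of the low-voltage Cav3 pores (287 ± 20.3 TPM in knockout, 285 ± 14.1 TPM in control) was higher than that of the Cav2 pores (184 ± 13.9 and 177 ± 12.9 TPM) and far higher than that of the Cav1 pores (25.3 ± 0.852 and 25.6 ± 1.77 TPM). Cacna1g and Cacna1h made up nearly all of the Cav3 sum, while Cacna1i was at 2.14 ± 1.16 TPM in knockout and 1.82 ± 0.842 TPM in control. Each of the sodium, Cav1 and Cav2 shares given here differed between genotypes by less than the larger SD of the pair.

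The auxiliary subunits followed the same form. Cacna2d1 held 57.3 ± 2.47% of the alpha2delta TPM in knockout and 55.7 ± 5.33% in control, and Cacna2d2 held 33.4 ± 1.70% and 34.0 ± 1.71%; the proteins of both bind gabapentin. Cacnb3 held 67.0 ± 0.354% of the Cavbeta TPM in knockout and 67.5 ± 0.753% in control. Cacng4 and Cacng7, which encode auxiliary proteins of AMPA receptors, led the gamma family at 53.0 ± 1.44% and 29.1 ± 1.46% in knockout, against 51.9 ± 2.18% and 29.8 ± 3.49% in control.

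In GFP-negative cells the make-up of several families differed from that in GFP-positive cells by more than the spread among GFP-positive libraries. Cacna1c held 40.6% and 40.3% of the Cav1 TPM in the knockout and control GFP-negative libraries. In knockout and control GFP-positive libraries it held 53.8 to 56.0% and 51.9 to 55.2%. Cacng7 held 44.0% and 47.8% of the gamma TPM in GFP-negative cells, against 27.6 to 30.6% and 26.6 to 35.3%. Scn9a held 4.49% and 5.21% of the sodium alpha TPM in the knockout and control GFP-negative libraries. Cacna1e held 3.88% and 2.79% of the Cav2 TPM there. The alpha2delta family was led by Cacna2d2 (49.4% and 51.1%) rather than Cacna2d1 (23.0% and 22.0%), and Cacna2d3 reached 27.1% and 26.4%. It was also the family with a higher summed level in GFP-negative cells, at 160.5 and 172 TPM in the knockout and control GFP-negative libraries, against 133 ± 6.88 TPM in knockout and 135 ± 11.7 TPM in control GFP-positive cells.

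**Figure D2:**
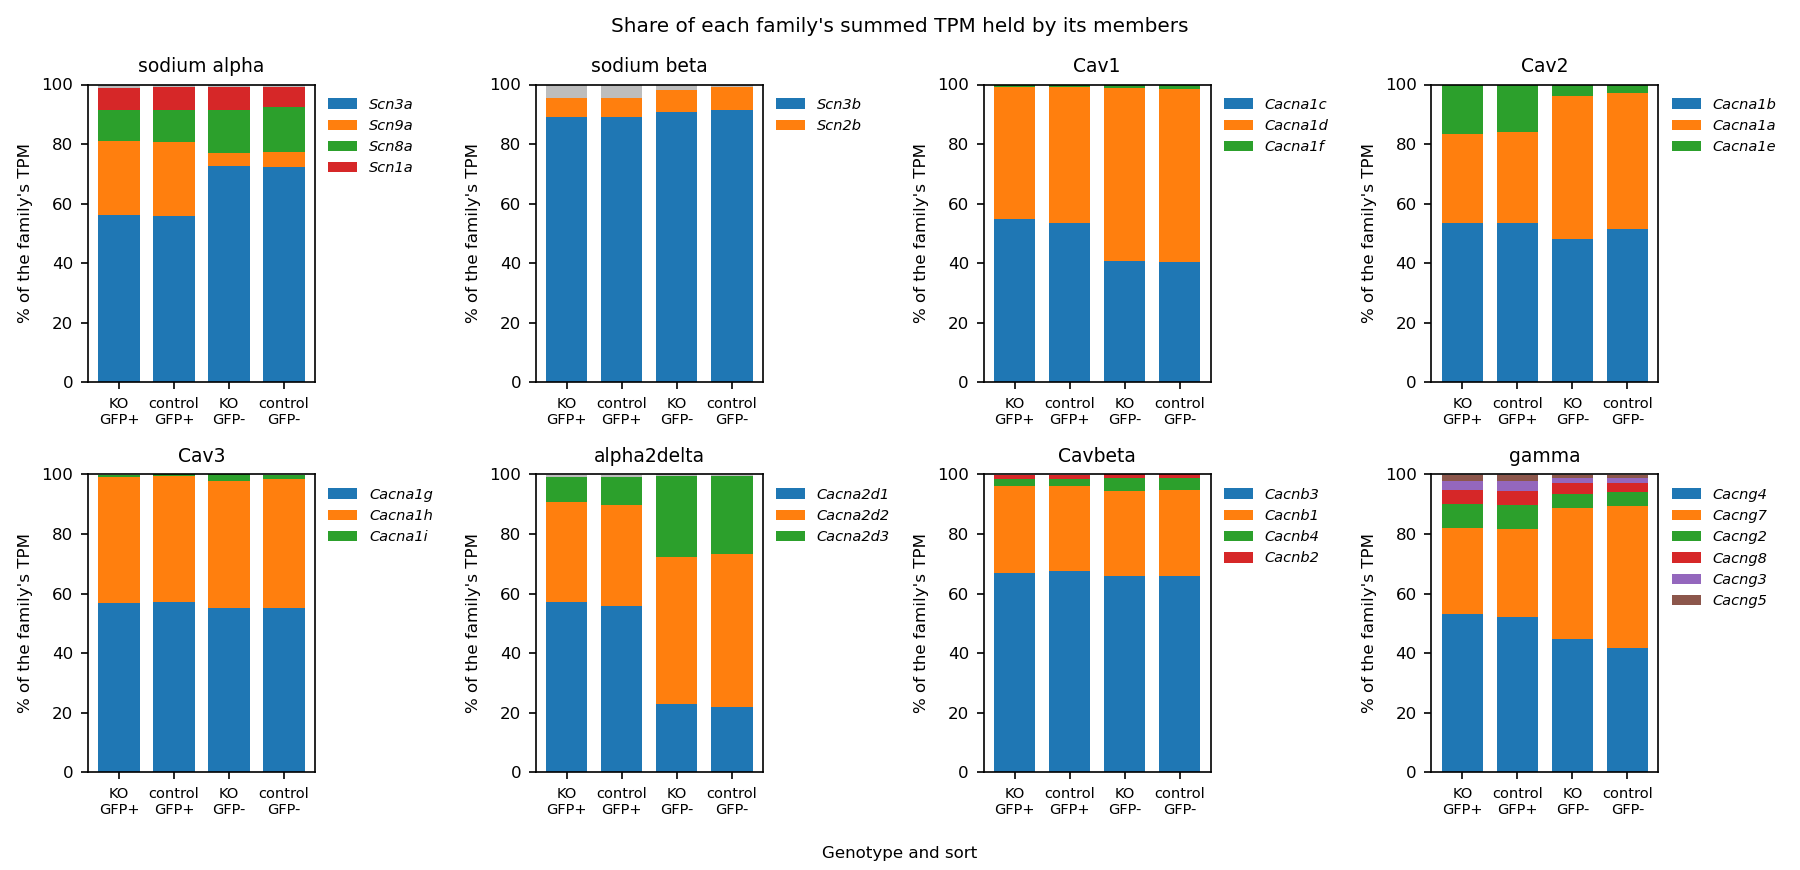
Share of each family's summed TPM (vertical axis, percent) held by its members in each genotype and sort (horizontal axis); bars for GFP-positive cells are means of 5 libraries and bars for GFP-negative cells are single libraries, with grey for members not named in the legend. The knockout and control bars differ little within each sort, while the alpha2delta bars turn from Cacna2d1 in GFP-positive to Cacna2d2 and Cacna2d3 in GFP-negative cells.

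GFP-positive cells were then compared with GFP-negative cells, which places the channel genes in motor neurons against the remaining cells of the ventral cord. A gene was called changed where edgeR's quasi-likelihood test, with genotype as a covariate, gave an adjusted p (Benjamini-Hochberg over all genes tested) under 0.05. Of the 34 members tested, 24 were higher and 3 lower in GFP-positive cells, 27 in all, against 61.9% of all 19763 genes tested (30.1% higher and 31.8% lower). The median log2 fold change was 0.81 over the 34 members and 0.018 over all genes. All 27 had GFP-positive libraries that did not overlap the GFP-negative libraries in CPM, as had 60.7% of all genes. In bulk libraries, fewer cells of a type and less RNA per cell cannot be told apart, and each GFP-negative group is 1 library, whose spread is taken from the replicated groups.

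Large differences between the sorts were found for the R-type calcium channel and for a sodium channel. Cacna1e, the R-type pore, had 174, 145, 176, 162 and 194 CPM in knockout and 121, 181, 145, 162 and 171 CPM in control GFP-positive libraries, and 15.6 and 11.99 CPM in the knockout and control GFP-negative libraries. Every GFP-positive library thus stood far above both GFP-negative libraries, a log2 fold change of 3.57 (SE 0.179, 11.9-fold, adjusted p = 1.00e-08). Scn9a had 139, 166, 189, 158 and 181 CPM in knockout and 125, 167, 177, 154 and 189.7 CPM in control GFP-positive libraries, against 16.5 and 15.6 CPM in the knockout and control GFP-negative libraries. Its log2 fold change was 3.36 (SE 0.177, 10.3-fold, adjusted p = 1.50e-08), with control replicate 1 and knockout replicate 1 the lowest of their groups and no overlap between the sorts. As Scn9a is best known from sensory neurons, markers of those cells stand beside it: 8 sensory neuron markers, none at 0, summed to 393 to 490.1 CPM in knockout and 380.0 to 477 CPM in control GFP-positive libraries, and to 156 and 171 CPM in the knockout and control GFP-negative libraries. Of these, P2rx3 was at 9.13 to 13.7 CPM in knockout and 6.202 to 9.53 CPM in control GFP-positive libraries, and at 3.58 and 3.998 CPM in the knockout and control GFP-negative libraries. Pou4f1 ran the other way, at 9.32 to 29.3 CPM in knockout and 9.82 to 31.2 CPM in control GFP-positive libraries, and at 125 and 137 CPM in the knockout and control GFP-negative libraries. The part of sensory neuron RNA in the difference of Scn9a was not tested.

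**Figure D3:**
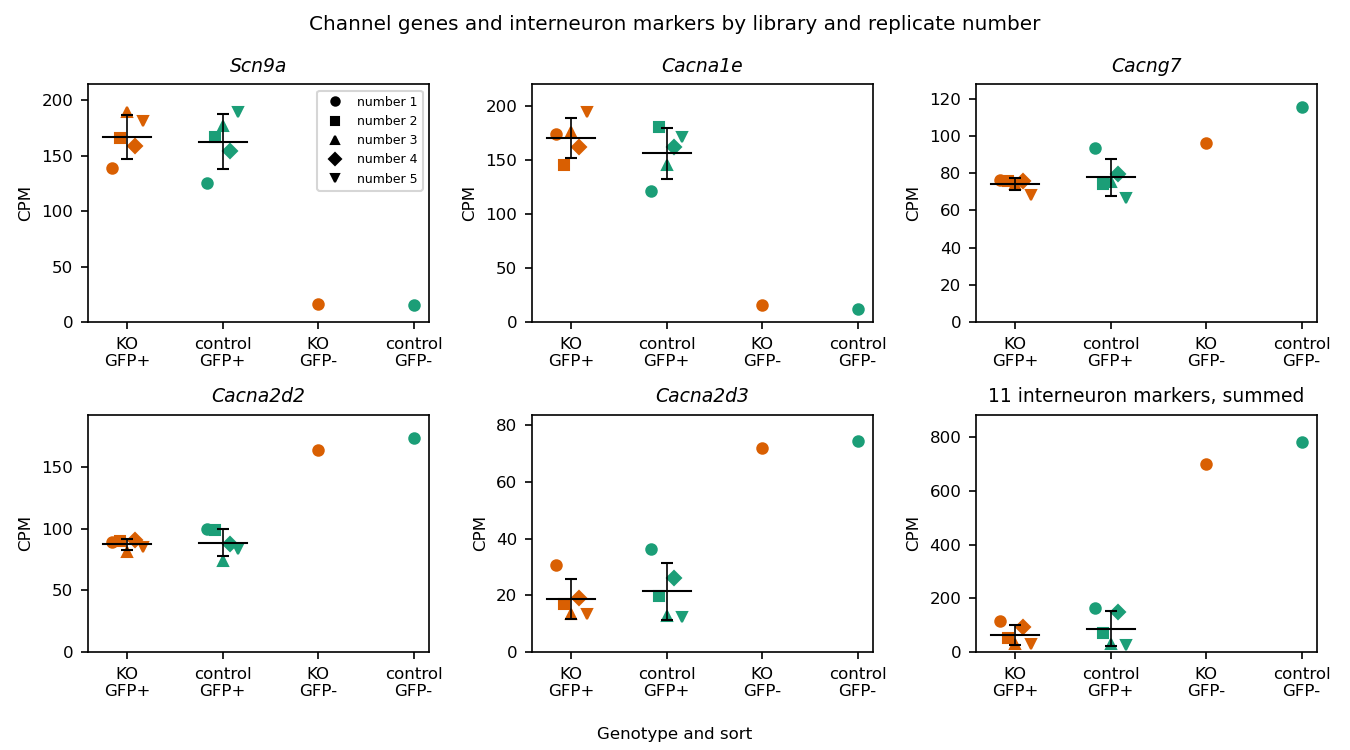
CPM of 5 channel genes and the summed CPM of 11 interneuron markers (vertical axes, linear, from 0) in each library, grouped by genotype and sort (horizontal axis); symbols give the replicate number, and bars the mean and SD of groups of 5. Scn9a and Cacna1e are higher in all 10 GFP-positive libraries than in the 2 GFP-negative ones and Cacng7, Cacna2d2 and Cacna2d3 lower, and the libraries numbered 1 and 4 are the highest GFP-positive ones of each genotype for both Cacna2d3 and the interneuron markers.

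The other sodium channel alpha genes differed less between the sorts than Scn9a. Scn3a had 285, 284, 321, 297 and 292 CPM in knockout and 277, 299.8, 306, 297 and 305 CPM in control GFP-positive libraries, and 194 and 194 CPM in the knockout and control GFP-negative libraries. The sorts did not overlap, yet the log2 fold change was only 0.61 (SE 0.05003, adjusted p = 1.61e-07) and GFP-negative cells carried this embryonic channel too. Scn1a and Scn8a, the pores that dominate in mature neurons, had log2 fold changes of 1.06 (adjusted p = 6.12e-06) and 0.43 (adjusted p = 9.30e-05). Scn7a, the gene of a sodium-sensing channel, and Scn10a did not pass the test, and Scn4a and Scn11a were too low to be tested.

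The beta subunits Scn3b and Scn2b were also higher in GFP-positive cells. Scn3b had 381, 408, 397, 394 and 421 CPM in knockout and 352, 405, 399, 377 and 423 CPM in control GFP-positive libraries, and 112 and 115 CPM in the knockout and control GFP-negative libraries. That is 3.48-fold higher (log2 fold change 1.80, SE 0.0664, adjusted p = 1.67e-10), with the GFP-positive libraries within a narrow band. Scn2b, whose protein is joined to the pore by a disulfide bond, had 33.7, 34.9, 32.1, 36.1 and 35.4 CPM in knockout and 30.7, 30.8, 36.3, 34.9 and 37.0 CPM in control GFP-positive libraries, against 11.6 and 11.9 CPM in the knockout and control GFP-negative libraries. Its log2 fold change was 1.54 (SE 0.0844, adjusted p = 4.33e-09), again without overlap. Scn4b had 1 to 4 counts in knockout and 1 to 3 in control GFP-positive libraries and 0 in both GFP-negative libraries, and was not tested.

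All calcium channel pores above 10 TPM were higher in GFP-positive cells. The N-type pore Cacna1b had 243, 258, 279, 262 and 267 CPM in knockout and 245, 271, 245, 259 and 249 CPM in control GFP-positive libraries, and 102 and 105 CPM in the knockout and control GFP-negative libraries. Its log2 fold change was 1.32 (SE 0.0568, adjusted p = 5.86e-10). The P/Q-type pore Cacna1a, which takes over transmitter release at the mature neuromuscular junction, had 93.2, 95.4, 99.6, 95.2 and 102 CPM in knockout and 91.2, 103, 93.0, 98.5 and 92.5 CPM in control GFP-positive libraries, against 58.2 and 64.9 CPM in the knockout and control GFP-negative libraries. It differed less, by a log2 fold change of 0.65 (SE 0.0570, adjusted p = 3.17e-07). Cacna1c had 67.8, 67.3, 73.0, 72.8 and 72.2 CPM in knockout and 66.4, 70.6, 68.9, 72.2 and 69.2 CPM in control GFP-positive libraries, and 26.0 and 25.2 CPM in the knockout and control GFP-negative libraries. With all GFP-positive libraries close together, its log2 fold change of 1.45 (SE 0.0495) had the smallest adjusted p of the members, 8.83e-11. Cacna1d, the Cav1 pore that opens at lower voltage, had 34.1, 35.5, 36.7, 33.5 and 37.4 CPM in knockout and 31.3, 39.4, 31.7, 37.2 and 38.4 CPM in control GFP-positive libraries, and 22.2 and 21.1 CPM in the knockout and control GFP-negative libraries. The sorts did not overlap (log2 fold change 0.71, adjusted p = 8.29e-06).

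Of the T-type pores, Cacna1g had 233, 239, 285, 253 and 246 CPM in knockout and 220.2, 241, 255, 248 and 245 CPM in control GFP-positive libraries, and 119.9 and 125 CPM in the knockout and control GFP-negative libraries. Cacna1h had 245, 259, 288, 249 and 262 CPM in knockout and 263, 235, 264, 251 and 254 CPM in control GFP-positive libraries, and 137 and 150.1 CPM in the knockout and control GFP-negative libraries. Both were higher in every GFP-positive library, with log2 fold changes of 1.01 (adjusted p = 4.81e-08) and 0.84 (adjusted p = 9.24e-08). The third T-type pore, Cacna1i, ranged over 4.61 to 8.003 CPM in knockout and 3.69 to 7.77 CPM in control GFP-positive libraries, with 5.41 and 7.05 CPM in the knockout and control GFP-negative libraries. The sorts overlapped, and its log2 fold change of -0.12 (95% confidence interval -0.66 to 0.43, adjusted p = 0.711) did not pass the test.

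The alpha2delta genes divided by direction. Cacna2d1 had 242, 233, 245, 235 and 234 CPM in knockout and 206, 259, 231, 243 and 234 CPM in control GFP-positive libraries, and 115 and 116 CPM in the knockout and control GFP-negative libraries, a log2 fold change of 1.03 (SE 0.0655, adjusted p = 1.54e-08). Cacna2d2 ran the other way, with 89.3, 90.1, 80.7, 90.6 and 84.9 CPM in knockout and 99.5, 98.7, 73.8, 87.8 and 83.7 CPM in control GFP-positive libraries, and 164 and 173 CPM in the knockout and control GFP-negative libraries. Every GFP-positive library was below both GFP-negative libraries (log2 fold change -0.94, SE 0.0817, adjusted p = 3.87e-07). Cacna2d3, a subunit that mice need for normal auditory processing, had 30.6, 16.8, 13.4, 19.1 and 13.5 CPM in knockout and 36.3, 19.8, 12.8, 26.1 and 12.4 CPM in control GFP-positive libraries, against 71.9 and 74.5 CPM in the knockout and control GFP-negative libraries. It was 3.65-fold lower in GFP-positive cells, a log2 fold change of -1.87 (SE 0.359, adjusted p = 0.00103). In the fit blocked by replicate number the log2 fold change was -1.13 (adjusted p = 1.25e-05). Both GFP-negative libraries carry number 1, so the blocked difference between sorts rests on the libraries numbered 1. Those are the highest GFP-positive libraries of each genotype for Cacna2d3.

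Cacna2d3 varied more between replicates than any other member above 10 TPM, and its high GFP-positive libraries were those numbered 1 and 4, in both genotypes. The same libraries carried the highest interneuron marker sums, given above. Without the GFP-positive libraries numbered 1 and 4, a choice made after the data were seen, the log2 fold change was -2.31 (edgeR adjusted p = 9.50e-06). Both GFP-negative libraries were kept. As these libraries are the highest GFP-positive ones of each genotype for Cacna2d3, leaving them out makes the difference larger by construction. The part of interneuron RNA in the replicate spread was not tested.

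Among Cavbeta subunits, Cacnb3, a form that pairs with neuronal Cav2 pores, had 351, 371, 366, 379 and 370.0 CPM in knockout and 378, 341, 381, 387 and 392 CPM in control GFP-positive libraries, and 218 and 216 CPM in the knockout and control GFP-negative libraries. Cacnb1, the form that skeletal muscle also uses, had 172, 179, 184, 184 and 182 CPM in knockout and 177, 172, 179.9, 182 and 184 CPM in control GFP-positive libraries, and 103 and 108 CPM in the knockout and control GFP-negative libraries. Both were higher in every GFP-positive library, with log2 fold changes of 0.77 (adjusted p = 1.65e-08) and 0.77 (adjusted p = 2.60e-09). Cacnb2 was higher as well (1.06, adjusted p = 3.37e-05). Cacnb4, by contrast, ranged over 34.5 to 41.6 CPM in knockout and 37.0 to 43.7 CPM in control GFP-positive libraries and stood at 40.8 and 40.8 CPM in the knockout and control GFP-negative libraries. Its log2 fold change of -0.075 did not pass the test (adjusted p = 0.380), and its 95% confidence interval of -0.23 to 0.077 leaves room for only a small difference.

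In the gamma family 5 of 7 tested members were higher and 1 lower in GFP-positive cells, beside 30.1% and 31.8% of all genes. Cacng4 had 223, 236, 224, 234 and 231 CPM in knockout and 218, 225, 229.8, 232 and 235 CPM in control GFP-positive libraries, and 163 and 168 CPM in the knockout and control GFP-negative libraries (log2 fold change 0.47, adjusted p = 1.59e-07). Cacng5, which like Cacng7 belongs to the second type of AMPA receptor auxiliary protein, had 10.01, 9.03, 8.24, 10.3 and 12.7 CPM in knockout and 9.73, 8.84, 10.4, 10.4 and 12.2 CPM in control GFP-positive libraries, and 3.03 and 4.24 CPM in the knockout and control GFP-negative libraries. It was 2.81-fold higher (log2 fold change 1.49, SE 0.175, adjusted p = 4.93e-06). Cacng7 had 76.3, 75.8, 73.8, 76.0 and 68.4 CPM in knockout and 93.3, 74.3, 75.1, 79.5 and 66.3 CPM in control GFP-positive libraries, and 95.9 and 116 CPM in the knockout and control GFP-negative libraries. It was lower in GFP-positive cells (log2 fold change -0.47, SE 0.0899, adjusted p = 4.59e-04), where control replicate 1 was the GFP-positive library nearest to the GFP-negative ones. Cacng2 (stargazin), Cacng3 and Cacng8 were higher, with log2 fold changes of 0.95, 1.16 and 0.63 (adjusted p = 4.29e-06, 0.00208 and 5.10e-05).

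**Figure D4:**
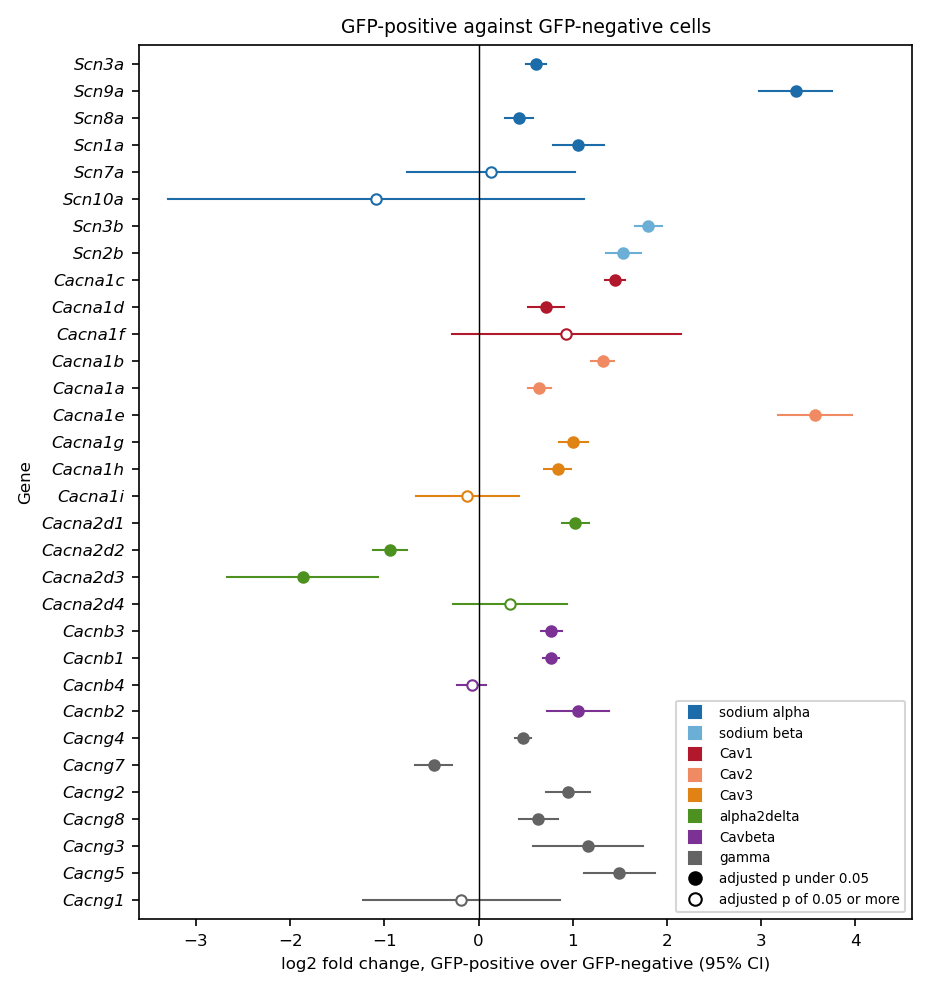
Log2 fold change of 32 tested channel genes, GFP-positive over GFP-negative cells (horizontal axis), by gene (vertical axis), with 95% confidence intervals from the edgeR fit. Of these, 22 lie to the right of 0 and 3 to the left among genes past the threshold, with Cacna1e at 3.57 and Cacna2d3 at -1.87 at the ends.

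Promoter sequence is shown for 4 of these genes, the pair of genes most enriched in GFP-positive cells for which a promoter entry was found and the pair of alpha2delta genes that were lower there. Entries of RefSeq on GRCm38.p6 matched 28 of the 38 members, with 38 windows of 250 bases before a transcription start. Capitals mark the GC box GGGCGG or its reverse complement CCGCCC, a binding motif of Sp-family factors in many promoters without a TATA box.
Cacna1e (chr1:154725921-154726170, minus strand): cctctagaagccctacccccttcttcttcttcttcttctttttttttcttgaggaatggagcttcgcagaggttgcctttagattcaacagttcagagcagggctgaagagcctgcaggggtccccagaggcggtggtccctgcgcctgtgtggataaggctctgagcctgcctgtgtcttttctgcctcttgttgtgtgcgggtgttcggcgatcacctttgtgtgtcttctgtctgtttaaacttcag
Scn9a (chr2:66634963-66635212, minus strand): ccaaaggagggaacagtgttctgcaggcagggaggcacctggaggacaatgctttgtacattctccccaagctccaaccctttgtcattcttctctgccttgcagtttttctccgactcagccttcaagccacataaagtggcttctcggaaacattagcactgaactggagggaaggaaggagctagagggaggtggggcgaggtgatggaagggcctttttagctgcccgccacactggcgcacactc
Cacna2d2 (chr9:107399630-107399879, plus strand): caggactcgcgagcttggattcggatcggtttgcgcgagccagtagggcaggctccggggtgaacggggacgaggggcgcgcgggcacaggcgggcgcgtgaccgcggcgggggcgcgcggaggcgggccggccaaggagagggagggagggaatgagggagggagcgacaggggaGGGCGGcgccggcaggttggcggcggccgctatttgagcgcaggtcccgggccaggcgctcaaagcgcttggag
Cacna2d3 (chr14:29721865-29722114, minus strand): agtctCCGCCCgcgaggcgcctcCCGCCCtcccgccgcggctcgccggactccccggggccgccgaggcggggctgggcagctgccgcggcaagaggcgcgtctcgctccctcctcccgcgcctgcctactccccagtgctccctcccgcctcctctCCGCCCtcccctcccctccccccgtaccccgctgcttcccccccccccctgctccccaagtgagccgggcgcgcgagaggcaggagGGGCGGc
The Cacna1e window precedes a RefSeq start that lies 159 kb inside the gene from its 5′ end in GENCODE M21, so it is not the window at the outer end of that gene. The windows of Cacna1e and Scn9a held 0 GC boxes and 6 and 5 CG dinucleotides, and those of Cacna2d2 and Cacna2d3 held 1 and 4 GC boxes and 34 and 30 CG dinucleotides. Over the members, 14 of 38 windows (36.8%) held GGGCGG on either strand, against 32.7% of all 32817 windows in the table. The E-box CAGCTG, its own reverse complement, was in 10 of 38 member windows (26.3%), against 13.0% of all windows. TATAAA was in 1 (2.63%), against 12.4%, and CCAAT in 10 (26.3%), against 33.8%. The RE1 parts CAGCACC and GGACAG, each a stretch of the site of the repressor REST, were in 0 and 5 member windows, against 5.73% and 18.7% of all windows, and the homeodomain core TAATTA was in 0, against 4.85%. These matches on both strands describe the windows only.

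Knockout was compared with control in GFP-positive cells, the comparison the study is named for. None of the 31 members tested passed the threshold: edgeR's quasi-likelihood test called 0, DESeq2 and limma on log2 TPM also called 0, and 0 had an unadjusted p under 0.05. Over all 17487 genes tested 0.0343% were called, and 2.14% had an unadjusted p under 0.05. This edgeR fit did not use the replicate numbers. In the fit blocked by replicate number 0 members were called and 1 had an unadjusted p under 0.05, as had 889 of all 17487 genes. Of the 31 members 19 had a log2 fold change above 0 and 12 below, with a median of 0.021 against -0.0016 over all genes. The 95% confidence interval lay within 2-fold either way for 29 of the 31 members and within 1.5-fold for 27. No member had knockout libraries that all lay above or all below the control libraries, which held for 0.538% of all genes. The other 7 members, Cacna1f, Cacng1, Cacng6, Scn4a, Scn4b, Scn10a and Scn11a, were too low to be tested.

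Members with small p included 3 pores and a gamma gene. Cacna1e averaged 170.5 ± 18.3 CPM in knockout and 156 ± 23.3 CPM in control, a log2 fold change of 0.13 (SE 0.110, 95% confidence interval -0.12 to 0.37). Knockout was above the same-numbered control in 3 of 5 pairs, and control replicate 1 was the lowest library of both groups. Cacna1b averaged 262 ± 13.1 CPM in knockout and 254 ± 11.3 CPM in control, with a log2 fold change of 0.047 (95% confidence interval -0.046 to 0.14). Cacna1g averaged 251 ± 20.1 CPM in knockout and 242 ± 13.2 CPM in control, with a log2 fold change of 0.054 (95% confidence interval -0.068 to 0.18). Both intervals lie within 1.5-fold either way. Cacng7 averaged 74.1 ± 3.33 CPM in knockout and 77.7 ± 9.93 CPM in control, with a log2 fold change of -0.07 (95% confidence interval -0.23 to 0.094), which turned to 0.0043 without control replicate 1. All of these had an edgeR adjusted p of 0.9999.

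The abundant genes of each family had narrow intervals around 0. Scn3a had a log2 fold change of -0.0061 (-0.10 to 0.084, 95% confidence interval), Scn9a of 0.037 (-0.22 to 0.29), Scn3b of 0.033 (-0.074 to 0.14) and Cacna1c of 0.025 (-0.058 to 0.11). For Cacna1h it was 0.039 (-0.065 to 0.14), for Cacna2d1 0.021 (-0.091 to 0.13), for Cacnb3 -0.032 (-0.12 to 0.056), for Cacnb1 0.011 (-0.057 to 0.08) and for Cacng4 0.01 (-0.059 to 0.079). The widest intervals of this unblocked fit belonged to Cacna2d3 (-0.21, -1.01 to 0.60) and to low genes such as Scn7a (0.09, -0.60 to 0.78). With the replicate number as a block, Cacna2d3 had a log2 fold change of -0.16. Its SE was 0.081 with the block and 0.355 without, whereas that of Scn7a was 0.359 with the block and 0.317 without. For Cacna2d3 the sign of knockout minus control matched that of the interneuron marker sum in 5 of 5 same-numbered pairs, as for Scn8a. The signs matched in 4 of 5 pairs for 8 other members and in 0 of 5 for Cacng4, Scn2b and Scn3b. Such matches were not counted over all genes, and the part of the interneuron markers was not tested.

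**Figure D5:**
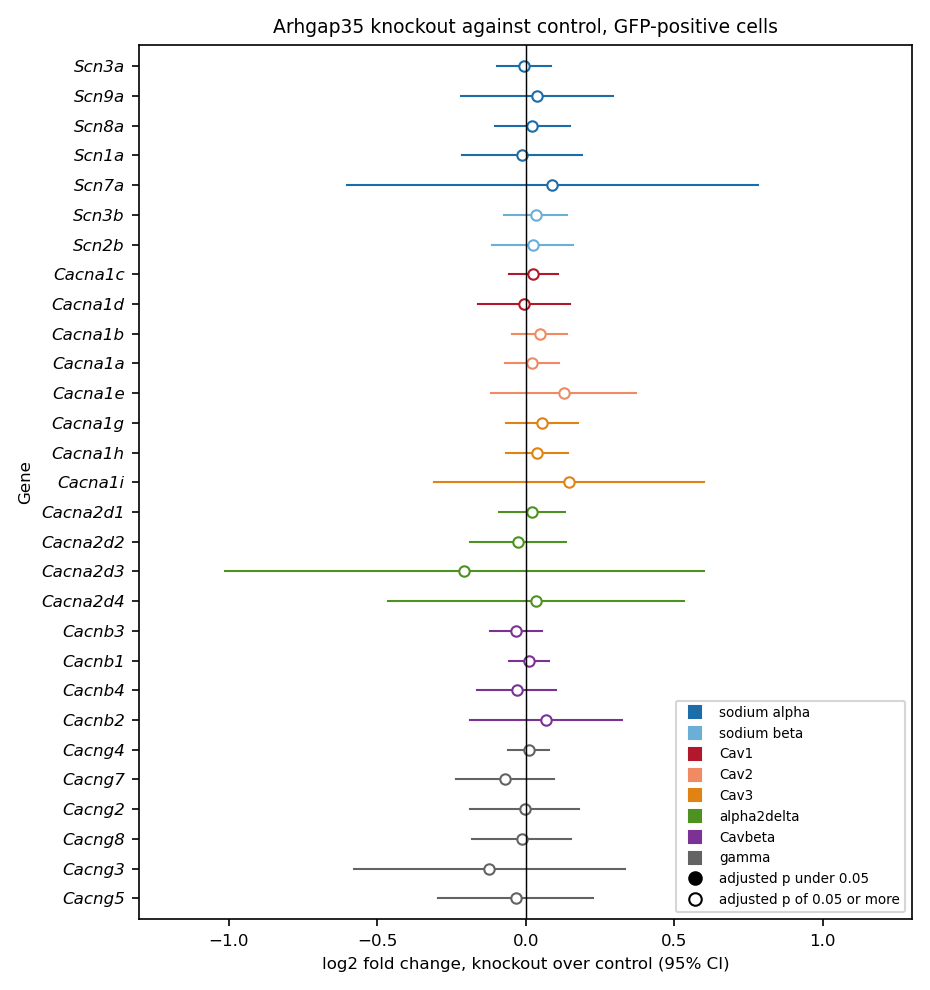
Log2 fold change of 29 tested channel genes, knockout over control GFP-positive cells (horizontal axis), by gene (vertical axis), with 95% confidence intervals from the edgeR fit. Every interval includes 0, and of the genes drawn Cacna1i at 0.15 and Cacna2d3 at -0.21 are the outermost points.

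The knockout effect in GFP-negative cells minus that in GFP-positive cells was tested for 34 members in a fit with 4 group means, again with the spread taken from the replicated groups. The test called 0 members by edgeR, by DESeq2 and by limma, and 0 had an unadjusted p under 0.05, against 0.0253% called and 1.78% of all 19763 genes under an unadjusted 0.05. Cacna1a, with values given above, and Scn7a were among the members with the smallest p. The difference in log2 fold change was -0.18 for Cacna1a (95% confidence interval -0.40 to 0.045). Scn7a had 0.473, 1.16, 0.530, 0.593 and 0.513 CPM in knockout and 0.795, 0.297, 0.545, 0.627 and 0.762 CPM in control GFP-positive libraries, and 0.840 and 0.339 CPM in the knockout and control GFP-negative libraries. Its difference was 1.21 (-0.54 to 2.95), and knockout replicate 2 was the highest of all 12 libraries. The 95% confidence interval of this difference lay within 2-fold either way for 23 of the 34 members. With the replicate number as a block, the members called were 0 between genotypes, 27 between sorts and 0 in the knockout effect between sorts, against 0.0286%, 55.6% and 0.00506% of all genes. The blocked difference between sorts rests on the libraries numbered 1, as both GFP-negative libraries carry that number.

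Genes that work with these channels were read in the same fits. Of 17 genes of sodium channel partners and anchors, 14 were higher and 2 lower in GFP-positive cells, where 30.1% of all genes were higher and 31.8% lower. Fgf11 and Fgf13, intracellular factors that bind sodium channels, averaged 101 ± 7.16 and 151 ± 10.01 CPM over the GFP-positive libraries (SD, n = 10), with log2 fold changes of 2.03 and 1.38. Sptbn1, a spectrin, and Calm3, a calmodulin gene, had 1.44 and 1.11. Of 24 presynaptic partners of calcium channels, 19 were higher and 4 lower, again beside 30.1% and 31.8% of all genes. Rimbp2, which ties Cav2 pores to release sites, was at 135 ± 8.03 CPM in GFP-positive libraries against 25.7 and 28.4 CPM in the knockout and control GFP-negative libraries (log2 fold change 2.32). Erc2, Ppfia2 and Snap25, of the release machinery, had log2 fold changes of 1.34, 1.51 and 1.38. The medians of the 2 lists were 0.92 and 0.80.

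Of 15 tested inhibitors, adaptors, kinases and turnover factors of the channels, 6 were higher and 4 lower, with a median of 0.029. The 10 of 15 called are close to the 61.9% of all genes. Stac, an adaptor of Cav1 pores, stood at 11.1 ± 1.51 CPM in GFP-positive libraries against 0.767 and 0.474 CPM in the knockout and control GFP-negative libraries (log2 fold change 4.16, adjusted p = 3.00e-09). Camk2b and Camk2g, calcium-dependent kinases, had log2 fold changes of 2.65 and 0.86, whereas Gem, a small GTPase that inhibits calcium channels through Cavbeta, had -1.91 at a level under 1 CPM in GFP-positive cells. The 14 genes of the REST repressor complex, which silences neuronal genes in non-neuronal cells, ran the other way, with a median of -0.65. Of them 2 were higher and 11 lower, beside 30.1% and 31.8% of all genes. Rest averaged 7.31 ± 1.04 CPM in GFP-positive libraries against 22.4 and 21.3 CPM in the knockout and control GFP-negative libraries (log2 fold change -1.58, adjusted p = 1.60e-07), Rcor1 had -0.84 and Ctdsp1 -1.83, while Ctdspl was higher at 1.43. Of 11 tested related channels, 5 were higher and 2 lower, and the 7 of 11 called are likewise close to the 61.9% of all genes. Nalcn, the sodium leak channel, had a log2 fold change of 2.78, its subunit gene Fam155a 1.12, Scn2a1 1.56, and the endolysosomal channel gene Tpcn1 -1.40.

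Between knockout and control GFP-positive cells, 0 genes of any of the 5 lists were called by edgeR, and 2 of the 80 tested (2.50%) had an unadjusted p under 0.05, close to the 2.14% of all genes. Calm3 averaged 1010.4 ± 68.9 CPM in knockout and 922 ± 41.3 CPM in control (SD, n = 5 each), which is a log2 difference of 0.13. Hvcn1, a proton channel gene, averaged 0.865 ± 0.175 CPM in knockout and 1.22 ± 0.214 CPM in control, a log2 fold change of -0.50. Neither passed the adjustment over all genes. Other genes named by the same rule had log2 fold changes of 0.088 (Ank3), 0.053 (Syt1), -0.14 (Nrxn3), -0.10 (Wwp2), 0.045 (Crbn), -0.026 (Ehmt2) and -0.18 (Tpcn2). The test of the knockout effect between sorts also called 0 genes of the 5 lists, and 1 of the 81 tested, Nrxn2, had an unadjusted p under 0.05, against 1.78% of all genes (a difference in log2 fold change of -0.21).

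Several members lie beside each other in the genome. On GRCm38 (GENCODE M21), Scn3a (chromosome 2, 65457118 to 65567627), Scn1a (2, 66270778 to 66440840), Scn9a (2, 66480080 to 66634962) and Scn7a (2, 66673425 to 66784914) share a cluster with Scn2a on chromosome 2, and Scn10a and Scn11a lie together on chromosome 9. Within the first cluster the GFP-positive to GFP-negative log2 fold changes were 0.61 for Scn3a, 1.06 for Scn1a, 3.36 for Scn9a and 0.13 for Scn7a, the last not passing the test. Cacng7, Cacng8 and Cacng6 lie 13.1 megabases from Arhgap35 on chromosome 7. Of the exonic 31-base words, 9.57% of Scn3a, 7.29% of Scn1a and 6.23% of Scn9a recur in another gene, chiefly the neighbouring sodium channels, so a small part of their estimated counts could be shared among them. As the library kit does not keep strand, reads over exons shared with genes of the opposite strand cannot be told apart. The share was 16.0% of the exonic length for Cacnb4 (with A430018G15Rik) and at most 5.86% for any other overlap.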

How the data were processed

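RNA of 12 sorted-cell libraries was measured by polyA-selected sequencing of 50-base single reads with a kit that keeps no strand, per the labels' protocols. The authors deposited estimated counts per gene symbol (39.2% exactly whole) and TPM, made with kallisto and mm10, per the submitters' processing notes. The notes give no versions and do not say how transcripts were summed to symbols. Each column name gives the genotype, sort and number of its sample. The 38 members and all gene lists were chosen with earlier results of these data known.

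Counts were rounded and passed through filterByExpr and TMM scaling before edgeR 4.0.16 (robust quasi-likelihood F-test; limma 3.58.1, R 4.3.3) was run, with Benjamini-Hochberg adjustment over all genes and a threshold of 0.05. The genotypes were compared in the 10 GFP-positive libraries, the sorts in all 12 libraries (genotype as covariate), and the knockout effect between sorts in a fit of 4 group means. Levels in CPM use the TMM-scaled library sizes. Intervals and floors cover the spread between libraries and counting error only. Genes named were the 2 most abundant members of each family, the 5 members of smallest p between genotypes, the 8 called members with the largest change between sorts, and the 3 of smallest p between sorts' knockout effects. From each list of related genes, up to 4 called genes, or 2 where none was called, were taken. Nalcn, Nrxn2 and members of other values were named after their values were seen where the rule did not reach them. Values of 2 members and 1 related gene are not reported here, and the counts of members include both.

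Residuals of same-numbered knockout and control libraries had correlations of 0.381, 0.252, 0.179, 0.277 and 0.310, and differently numbered ones at most 0.104, so the numbers pair the samples. The labels do not say what the numbers share. A fit blocked by number was run as well. Its difference between sorts rests on the libraries numbered 1, the number of both GFP-negative libraries. Other alternatives were DESeq2-type size factors, no filter, DESeq2 1.42.0, limma on log2(TPM + 1) and log2(TPM + 0.1), either genotype alone and each library left out. On simulated counts the test recovered 91% of 2-fold and 98.0% of 4-fold changes for knockout against control, 87% and 97% for GFP-positive against GFP-negative cells, and 58% and 82% for the knockout effect between sorts. Exon overlaps and 31-base words come from GENCODE M21 and promoters from RefSeq.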

Additional observations from a re-analysis of the deposited data

Results flagged for a closer look

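In 40 groups of 5 libraries (20 channel genes in each genotype of GFP-positive cells), 2 groups held a library that stood apart from the other 4 by Dixon's test, where chance alone flags about 1 in 20 groups. Scn7a, at low counts, was 1.16 CPM in knockout replicate 2, against 0.473 to 0.593 CPM in the other knockout libraries. Cacnb3 was 340.9 CPM in control replicate 2, against 378 to 392 CPM in the other control libraries.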

How the results depend on the processing

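Under every alternative run the counts of members called stayed close: 0 between knockout and control and 0 in the knockout effect between sorts, with 23 to 25 higher and 2 to 3 lower between GFP-positive and GFP-negative cells, and 24 and 3 whichever single library was left out. With no filter Scn4b was called higher as well. In control libraries alone Cacna2d3 (log2 fold change -1.77, adjusted p = 0.0615) and Cacng3 (1.20, adjusted p = 0.0643) no longer passed; the cause was not tested. The knockout log2 fold change of Cacng7 ran from -0.12 to 0.0043 with 1 library left out, was above 0 without control replicate 1, and was 0.016 with the libraries numbered 2, 3 and 5 only, a setting chosen after seeing the data. For Cacna1i the log2 fold change between sorts ran from -0.37 to 0.16 with 1 library left out, was above 0 without the control GFP-negative library, and was 0.16 in knockout libraries alone. Leaving out either GFP-negative library ends the knockout effect between sorts, which then could not be fitted.

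With the replicate block, 0 members were called between genotypes, 24 were higher and 3 lower between sorts, and 0 differed in knockout effect, and the block changed no call of a member. Between sorts the blocked fit rests on the libraries numbered 1 and is no check over all libraries. On the count scale, not per length, shares in knockout and control GFP-positive libraries were 50.3% and 51.1% for Scn3a (45.3% and 45.1% in TPM with Scn2a1 added, chosen after seeing the data), 90.4% and 90.3% for Scn3b, 66.3% and 66.0% for Cacna1c, 49.5% and 50.3% for Cacna1b, 48.5% and 48.3% for Cacna1g (below Cacna1h at 50.3% and 50.6%, the reverse of the TPM order), 69.0% and 67.9% for Cacna2d1, 61.7% and 62.3% for Cacnb3 and 58.2% and 57.3% for Cacng4. Dividing by transcript length makes this difference by construction. Depth limits the 7 members too low to be tested between genotypes, whose differences were not detectable here.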
